A study of Mus musculus with 6 samples.

Results

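The CXC chemokine ligands *Cxcl16*, *Cxcl10*, *Cxcl14*, *Cxcl2* and *Cxcl1* and the platelet factor 4 gene *Pf4* were followed in bone-marrow-derived macrophages (BMDMs) with and without excess salt. These 6 genes were chosen by name, with the difference between the salt-treated and control libraries already known, so that difference is described here and not tested. They are 6 of the 57010 genes in the count table, and all 6 were among the 15903 genes with a total of at least 10 counts over the libraries. BMDMs arise when bone marrow cells are cultured with M-CSF, a growth factor of macrophages. Marrow came from 3 *Cx3cr1GFP* mice on the C57BL/6J background, which carry a GFP sequence in the *Cx3cr1* locus, and this allele was shared by both groups. Cells were grown with 10 ng/ml M-CSF, floating cells were removed with part of the medium after 7 days, and only adherent cells were collected. From each mouse, numbered 1 to 3, a sample labelled unstim (control, n = 3) and a sample labelled NaCl, with 62 mM additional NaCl for 24 h (NaCl, n = 3), were sequenced as polyadenylated RNA. The handling of the control cells is not described separately, and the age and sex of the mice are not given in the sources used here.

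Chemokines are small secreted proteins that bind receptors with a bundle of transmembrane segments and steer the migration of leukocytes. The CXC ligands have a pair of cysteines near the start of the mature protein with a single residue between them, and they bind glycosaminoglycans, which hold them on cell surfaces and matrix. Those with glutamate, leucine and arginine directly before the cysteines (ELR) act on CXCR2 and attract neutrophils. CXCL10 attracts activated T cells and natural killer cells through CXCR3, PF4 is stored in platelet granules and binds heparin, and CXCL16 is made as a transmembrane protein that macrophages carry on their surface.

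The coding sequence around these cysteines is what places the 6 genes in 1 family, and it also separates them. In the 42 bases shown for each gene (GENCODE M21, build GRCm38, 5′ to 3′ on the coding strand), capitals mark the 3 codons of the cysteine, the residue between and the other cysteine.
Cxcl16: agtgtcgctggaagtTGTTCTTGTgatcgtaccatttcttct
Cxcl10: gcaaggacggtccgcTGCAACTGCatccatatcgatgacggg
Pf4: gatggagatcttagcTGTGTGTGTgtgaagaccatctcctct
Cxcl14: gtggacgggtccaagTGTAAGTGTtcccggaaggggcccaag
Cxcl2: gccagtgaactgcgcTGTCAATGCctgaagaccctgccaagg
Cxcl1: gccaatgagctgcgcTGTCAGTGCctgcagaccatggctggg
The stretch lies in exon 2 of 5 of *Cxcl16* (chr11:70459109-70459150, minus strand), exon 2 of 4 of *Cxcl10* (chr5:92348163-92348204, minus strand), exon 2 of 3 of *Pf4* (chr5:90772929-90772970, plus strand), exon 2 of 4 of *Cxcl2* (chr5:90904127-90904168, plus strand) and exon 2 of 4 of *Cxcl1* (chr5:90891481-90891522, plus strand). In *Cxcl14* it runs across the junction of exons 1 and 2 of 4 (chr13:56295897-56296116 with the intron, minus strand). Only *Cxcl1* and *Cxcl2* have the ELR codons directly before the capitals, and their coding sequences are identical at 227 of 288 aligned bases (78.8%). The predicted proteins have 96 to 105 residues for 5 of the genes and 246 for *Cxcl16*, whose additional length holds the stalk, the membrane segment and the intracellular tail.

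The libraries held 4088065 to 20123570 counts on genes, with NaCl replicate 3 the smallest and control replicate 3 the largest. The macrophage receptor genes *Csf1r* (2083 ± 148 CPM in controls; CPM are counts scaled to 1000000 per library with TMM-scaled library sizes, mean ± SD, n = 3) and *Cd14* (288 ± 14.2 CPM) and the lysozyme gene *Lyz2* (9817 ± 524 CPM) were abundant, and the 12 BMDM and macrophage markers together took 16216 to 18429 CPM in control and 25424 to 32742 CPM in NaCl libraries. In edgeR's quasi-likelihood test of NaCl against control, adjusted over all genes tested at a threshold of 0.05, 0.478% of genes were called higher and 0.176% lower. With the mouse as a replicate block these shares were 4.60% and 4.30%, and in DESeq2 without the block 1.91% and 1.21% of the 12817 genes with an adjusted p. "Called" refers to edgeR's test unless DESeq2 is named. Genes without an adjusted p in DESeq2, some of them in the lists below, could not be called by it. In edgeR's fit without the block, 5 of the 12 macrophage markers had a log2 fold change above 0 and 7 below (median -0.06). The rise of their sum was thus not shared by most of them, and *Lyz2* alone went from 9817 to 19148 CPM on average. In bulk RNA, a change in the number of cells that make a transcript and a change of its amount per cell cannot be told apart.

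**Figure D1:**
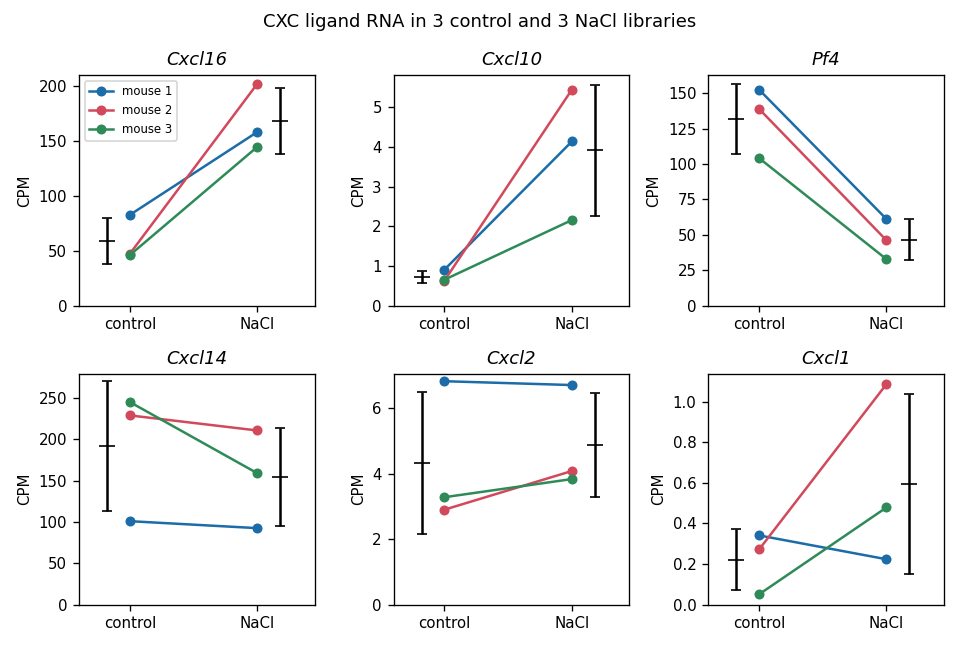
RNA level of the 6 CXC ligand genes in CPM (linear axes from 0, TMM-scaled library sizes), with a line joining the control and NaCl library of each mouse and black bars giving mean ± SD (n = 3). The lines of *Cxcl16* and *Cxcl10* go up and those of *Pf4* go down in 3 of 3 mice with no overlap between groups, whereas the groups overlap for *Cxcl14*, *Cxcl2* and *Cxcl1*.

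*Cxcl16* RNA was higher in every NaCl library than in every control library. This gene (ENSMUSG00000018920.12, chromosome 11) encodes the membrane-bound ligand of CXCR6, which also serves macrophages as a scavenger receptor for oxidized lipoprotein and phosphatidylserine. In the order of mice 1, 2 and 3, the control libraries held 728, 523 and 915 of its counts and the NaCl libraries 1416, 2230 and 604. These correspond to 82.8, 47.4 and 46.2 CPM in control and 158, 202 and 145 CPM in NaCl libraries. The highest control library was that of mouse 1, and it lay well below the lowest NaCl library, that of mouse 3. The mean rose from 58.8 ± 20.8 to 168 ± 30.0 CPM, a ratio of means of 2.86, and the fitted log2 fold change was 1.53 (standard error 0.24) without and 1.56 (standard error 0.15) with the mouse as a block. Within mice 1, 2 and 3, the log2 ratio of NaCl to control (CPM with a prior count of 2) was 0.93, 2.09 and 1.64.

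*Cxcl10* had few counts and rose most steeply of the 6 genes by the ratio of means. It encodes an interferon-inducible ligand of CXCR3 (ENSMUSG00000034855.14, chromosome 5). Its counts were 8, 7 and 13 in control and 37, 60 and 9 in NaCl libraries. In CPM the control libraries lay close together at 0.910, 0.634 and 0.656, and the NaCl libraries were at 4.13, 5.44 and 2.16. The 9 counts of NaCl replicate 3 have a 95% Clopper-Pearson interval of 1.01 to 4.18 RPM (counts scaled to 1000000 by the library's own total), which covers counting error only, as do all such intervals here. The mean went from 0.733 ± 0.153 to 3.91 ± 1.65 CPM, a ratio of 5.33, with a fitted log2 fold change of 2.50 (standard error 0.39) without and 2.36 (standard error 0.36) with the block. The within-mouse log2 ratios were 1.98, 2.77 and 1.47.

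*Pf4* RNA was lower in every NaCl library than in every control library. PF4, also named CXCL4, is known as a product of megakaryocytes and platelets that neutralizes heparin (ENSMUSG00000029373.8, chromosome 5). Its counts were 1341, 1533 and 2065 in control and 547, 509 and 137 in NaCl libraries, or 152, 139 and 104 CPM against 61.1, 46.1 and 32.8 CPM. In both groups mouse 1 was highest and mouse 3 lowest. The group means were 132 ± 24.9 and 46.7 ± 14.2 CPM and NaCl lowered the level by a log2 fold change of -1.48 (standard error 0.23) without and -1.52 (standard error 0.12) with the block. The within-mouse log2 ratios of -1.32, -1.59 and -1.66 were more alike among mice than those of *Cxcl16*.

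*Cxcl14* was abundant in both groups, and its NaCl and control libraries overlapped. CXCL14 is a chemokine of epithelia and other tissues that acts on monocytes and dendritic cells (ENSMUSG00000021508.12, chromosome 13). Its counts were 888, 2529 and 4862 in control and 828, 2326 and 664 in NaCl libraries, which gave 101, 229 and 245 CPM against 92.5, 211 and 159 CPM. Mouse 1 stood apart in both groups, with less than the lowest library of the other mice. Group means were 192 ± 79.1 and 154 ± 59.3 CPM and the log2 fold change was -0.32 (standard error 0.35) without and -0.29 (standard error 0.12) with the block, neither of which was called. The log2 ratios within mice were -0.13, -0.12 and -0.62.

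The ELR ligands *Cxcl2* and *Cxcl1*, which recruit neutrophils and are typical products of macrophages activated by microbial molecules, were low in both groups and were not called. *Cxcl2* (ENSMUSG00000058427.11, chromosome 5) had 60, 32 and 65 counts in control and 60, 45 and 16 counts in NaCl libraries. The level was 6.82, 2.90 and 3.28 CPM in control and 6.71, 4.08 and 3.83 CPM in NaCl libraries, so that mouse 1 was again apart from the others, here at the high end. The means were 4.33 ± 2.16 and 4.87 ± 1.59 CPM and the log2 fold change was 0.23 (standard error 0.37) without and 0.21 (standard error 0.24) with the block. *Cxcl1* (ENSMUSG00000029380.12, chromosome 5) had 3, 3 and 1 counts in control and 2, 12 and 2 counts in NaCl libraries, and thus passed the filter with 23 counts. The 12 counts of NaCl replicate 2 amount to 1.03 RPM in that library (95% Clopper-Pearson interval 0.534 to 1.81) and the single count of control replicate 3 to 0.0497 RPM (0.00126 to 0.277), while the intervals of the other libraries reached from 0.0280 to 1.77 RPM. Group means of *Cxcl1* were 0.221 ± 0.152 and 0.597 ± 0.444 CPM with a log2 fold change of 1.71 (standard error 0.82). The log2 ratios of *Cxcl1* within mice 1, 2 and 3 were -0.36, 1.47 and 1.48. With so few counts, and most NaCl counts in replicate 2, nothing is concluded on a difference.

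Of the 6 genes, 2 were called higher (*Cxcl16* and *Cxcl10*) and 1 lower (*Pf4*), against the 0.478% and 0.176% of all genes given above. Since the genes were chosen with this comparison known, nothing is read from these counts. The same 3 genes were called with the block and by DESeq2, and the 6 had a median of 0.88 on the log2 scale, against -0.0065 over all genes tested. In the fit without the block the calls depended on single libraries, though the direction did not for these 3 genes. *Cxcl16* and *Cxcl10* were not called in the fit without the block when control replicate 2 or 3 or NaCl replicate 2 or 3 was left out, where the log2 fold change stayed between 1.38 and 1.86 and between 2.20 and 2.73 over all 6 omissions. *Pf4* was called only when NaCl replicate 1 was the library left out, with a log2 fold change between -1.72 and -1.30 over the 6 omissions.

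**Figure D2:**
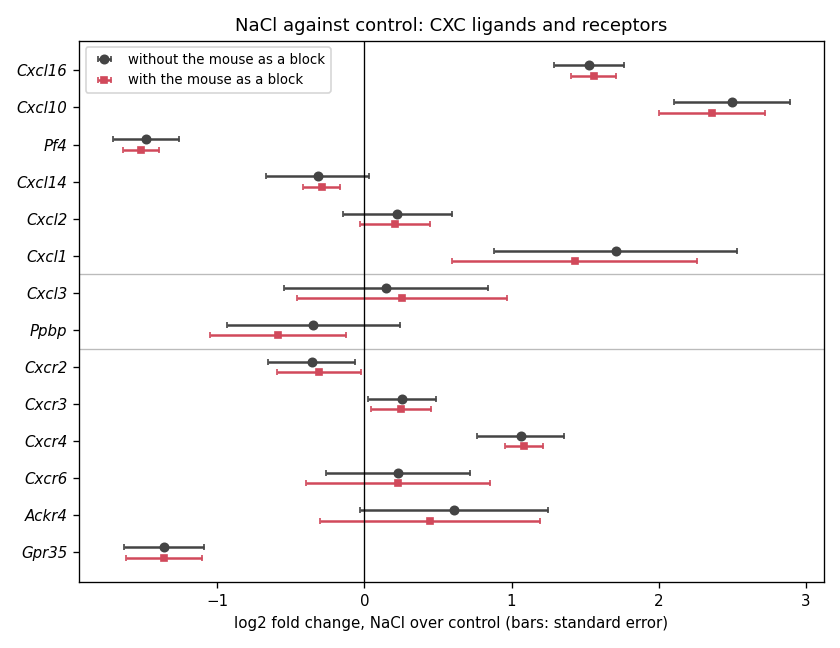
Log2 fold change of NaCl over control (linear axis in log2 units, bars give the standard error) for the 6 genes, the other CXC ligands tested and their receptors, from the edgeR fit without the mouse as a block (black circles) and with it (red squares). *Cxcl16*, *Cxcl10*, *Cxcr4* and, with wide bars, *Cxcl1* lie well to the right of 0, and *Pf4* and *Gpr35* well to the left. Among the genes whose bars are shorter with the block are *Cxcr4*, *Cxcl14*, *Cxcl16*, *Pf4* and *Cxcl2*.

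To compare levels between genes, CPM was divided by the length of the union of exons in kilobases. In controls *Pf4* was highest at 183 ± 34.6 CPM per kilobase, followed by *Cxcl14* at 105 ± 43.3, *Cxcl16* at 19.5 ± 6.89, *Cxcl2* at 2.10 ± 1.05, *Cxcl10* at 0.326 ± 0.0680 and *Cxcl1* at 0.118 ± 0.0810. No neighbours in this order overlapped in the 3 control libraries. In NaCl libraries *Cxcl14* (84.4 ± 32.5 CPM per kilobase), *Pf4* (64.8 ± 19.6) and *Cxcl16* (55.7 ± 9.94) had overlapping ranges, of 50.6 to 115, 45.5 to 84.8 and 47.9 to 66.9. The ranges of *Cxcl2* (2.36 ± 0.770) and *Cxcl10* (1.74 ± 0.734) overlapped as well, and *Cxcl1* remained lowest at 0.318 ± 0.237. *Pf4* and *Cxcl16* thus had separate ranges in control and overlapping ranges in NaCl-treated cells.

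**Figure D3:**
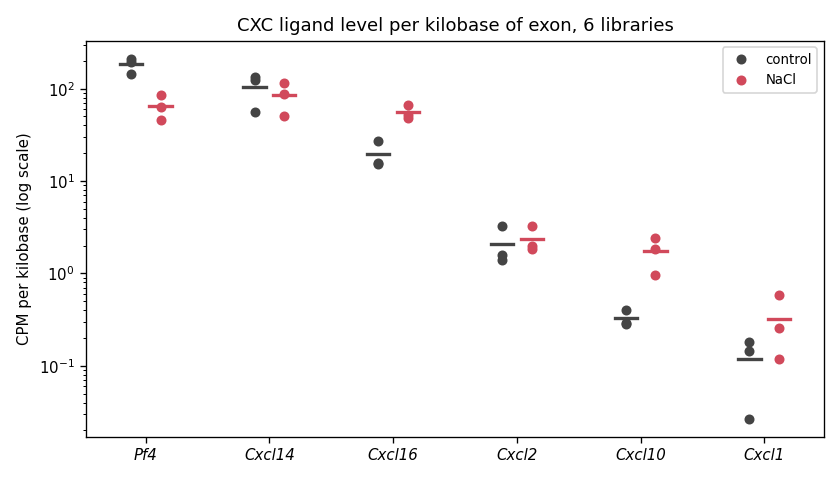
Level of the 6 genes per kilobase of exon in each library (CPM per kilobase, log axis), with control libraries in black, NaCl libraries in red and the group mean as a bar (n = 3). The order in controls runs from *Pf4* at 183 down to *Cxcl1* at 0.118, and *Pf4*, *Cxcl14* and *Cxcl16* come together in the NaCl libraries.

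The choice of the 6 genes did not use how far the mice differed from each other, so this was tested. The test itself was chosen with earlier results of these data known. In edgeR's F test of both mouse terms beside treatment, *Cxcl14*, *Pf4* and *Cxcl2* differed between mice, 3 of 6 genes against 8.89% of all genes tested. The share of genes called rises with abundance, being 1.5% of 4792 genes with a mean under 20 counts, 9.4% of 3863 genes with 20 to 200 counts (*Cxcl2* and *Cxcl10*) and 13.49% of 7248 genes above that (*Cxcl14*, *Pf4* and *Cxcl16*). *Cxcl14* differed most, with mean log2 CPM of 6.60, 7.78 and 7.63 in mice 1, 2 and 3, a range of 2.27-fold (adjusted p = 1.1e-05 from edgeR). *Pf4* ran the other way, from 6.60 over 6.33 to 5.88, a range of 1.65-fold (adjusted p = 0.00899 from edgeR), and *Cxcl2* was at 2.80, 1.86 and 1.90, a range of 1.92-fold (adjusted p = 0.0271 from edgeR). Mouse 1 thus had the lowest *Cxcl14* and the highest *Pf4* and *Cxcl2*. *Cxcl16* (1.40-fold, adjusted p = 0.188), *Cxcl10* (1.55-fold, adjusted p = 0.485) and *Cxcl1* (1.92-fold, adjusted p = 0.494) did not pass edgeR's test.

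*Cxcl14* passed this test in all 6 fits that each left out 1 library, with edgeR's adjusted p at most 0.0144. *Pf4* and *Cxcl2* passed in 3 of 6 each, and neither passed without control replicate 1 (adjusted p = 0.0800 and 0.673 from edgeR), NaCl replicate 1 (0.376 and 0.191) or NaCl replicate 3 (0.161 and 0.0624). *Cxcl2* also did not pass DESeq2's likelihood ratio test (adjusted p = 0.271). A mouse and the shared handling of its libraries cannot be told apart. Markers of other cells differed between mice as well, namely 5 of 13 neutrophil, 2 of 9 monocyte, 2 of 3 B and T cell and 1 of 6 stromal and endothelial markers tested, and 3 of 12 macrophage markers. Of the megakaryocyte and platelet markers 0 of 9 passed this test, and of the dendritic cell markers 0 of 10. Over all genes tested the share was 8.89%, and it was 1.5% for genes with a mean under 20 counts. Lists of different abundance are therefore not compared by these counts. The summed neutrophil markers were 338 and 336 CPM in the control and NaCl library of mouse 1, 618 and 431 CPM in mouse 2 and 468 and 340 CPM in mouse 3, and the summed monocyte markers were 338 and 380, 224 and 170, and 191 and 216 CPM. Mouse 1 was lowest in the former and highest in the latter within each group, and the part of these cells in the differences between mice was not tested.

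**Figure D4:**
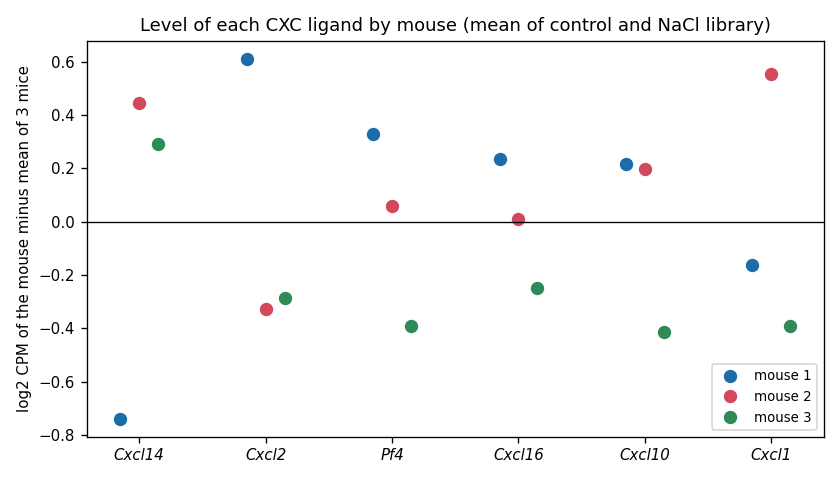
Level of each of the 6 genes in mice 1, 2 and 3 as log2 CPM, averaged over the control and NaCl library of a mouse and given relative to the mean of the 3 mice (linear axis in log2 units). Mouse 1 is far below the other mice for *Cxcl14* and far above them for *Cxcl2*, and the mice lie closest together for *Cxcl16*.

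Other CXC ligands gave little signal in these cells. Of 9 listed, *Cxcl3*, an ELR ligand on the chromosome of *Cxcl2*, and *Ppbp*, which encodes a platelet chemokine next to *Pf4*, were tested. Neither was called by edgeR with or without the block, nor had an unadjusted p under 0.05 there. DESeq2 without the block did not call *Ppbp* and gave no adjusted p for *Cxcl3*. *Cxcl3* had 5, 5 and 9 counts in control and 2, 4 and 6 in NaCl libraries (0.492 ± 0.0664 and 0.674 ± 0.664 CPM, log2 fold change 0.15, standard error 0.69). *Ppbp* had 17, 14 and 14 against 15, 8 and 1 counts (1.30 ± 0.614 and 0.880 ± 0.731 CPM, log2 fold change -0.35, standard error 0.59). *Cxcl12*, the ligand of CXCR4, had 9 counts in all libraries together and *Cxcl9* and *Cxcl13* had 1 each. *Cxcl5*, *Cxcl11*, *Cxcl15* and *Cxcl17* had none, where a count of 0 allows up to 0.149 RPM in control replicate 3 and up to 0.734 RPM in NaCl replicate 3.

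Among 11 receptors of CXC ligands, 6 were tested and edgeR called none without the block, where 2 had an unadjusted p under 0.05. With the block, and in DESeq2 without it, *Cxcr4* rose and *Gpr35* fell. Their median log2 fold change was 0.24. *Cxcr4*, which encodes the receptor of CXCL12, had 95.3, 62.7 and 41.3 CPM in the control libraries and 161, 159 and 92.9 CPM after NaCl, where the lowest NaCl library lay just below the highest control library. Within every mouse it was higher with NaCl (log2 fold change 1.09, standard error 0.13 with the block), and it also differed between mice. *Gpr35*, which has been proposed as a receptor of CXCL17, went from 5.98 ± 0.283 to 2.45 ± 0.780 CPM (log2 fold change -1.36, standard error 0.26 with the block). *Cxcr6*, the receptor of CXCL16, had 36 counts in all libraries, and *Cxcr3*, the receptor of CXCL10, was at 7.27 ± 1.89 and 8.57 ± 0.612 CPM. *Cxcr2* was at 3.37 ± 0.911 and 2.65 ± 0.326 CPM, *Cxcr1* and *Cxcr5* had 5 counts each, and *Ackr1*, *Ackr2* and *Ackr3*, genes of scavenging receptors, had none.

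The 5 listed genes of sheddases and partners that release CXCL16 from the membrane had no call by edgeR in either fit or by DESeq2, with 0 and 2 at an unadjusted p under 0.05 without and with the block, and their median was -0.27 on the log2 scale. The main sheddase genes *Adam10* (368 ± 64.0 CPM in control, 305 ± 56.8 CPM in NaCl) and *Adam17* (301 ± 4.03 and 328 ± 11.1 CPM) were abundant in both groups. Of 13 listed carriers of heparan sulfate and chondroitin sulfate, the chains that PF4 and CXCL10 bind, 12 were tested and edgeR called none without the block, with 2 at an unadjusted p under 0.05. With the block the glypican gene *Gpc1* rose from 43.7 ± 1.03 to 59.1 ± 1.31 CPM, while *Cd44* fell from 538 ± 6.55 to 372 ± 46.7 CPM and the syndecan gene *Sdc4* from 106 ± 14.4 to 82.0 ± 16.3 CPM, and DESeq2 without the block called *Cd44* lower. Their median log2 fold change was -0.24.

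Promoter sequence was examined because *Cxcl10* and *Pf4*, on the same chromosome, went in opposite directions while *Cxcl2* was not called. The 250 bases before the start site of these 3 genes (RefSeq, GRCm38.p6, 5′ to 3′ on the strand of the gene) are given with matched motifs in capitals. They lie at chr5:92348890-92349139 (minus strand) for *Cxcl10*, chr5:90772185-90772434 (plus strand) for *Pf4* and chr5:90903649-90903898 (plus strand) for *Cxcl2*.
Cxcl10: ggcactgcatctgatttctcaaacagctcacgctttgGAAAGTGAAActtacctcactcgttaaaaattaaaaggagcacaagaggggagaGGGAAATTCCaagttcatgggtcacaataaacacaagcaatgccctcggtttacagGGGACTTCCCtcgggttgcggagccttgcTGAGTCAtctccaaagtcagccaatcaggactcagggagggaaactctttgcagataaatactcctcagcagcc
Pf4: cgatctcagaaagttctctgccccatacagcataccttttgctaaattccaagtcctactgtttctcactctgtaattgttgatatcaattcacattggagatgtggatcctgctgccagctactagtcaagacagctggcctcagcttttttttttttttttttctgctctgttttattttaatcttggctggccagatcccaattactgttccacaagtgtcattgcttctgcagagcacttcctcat
Cxcl2: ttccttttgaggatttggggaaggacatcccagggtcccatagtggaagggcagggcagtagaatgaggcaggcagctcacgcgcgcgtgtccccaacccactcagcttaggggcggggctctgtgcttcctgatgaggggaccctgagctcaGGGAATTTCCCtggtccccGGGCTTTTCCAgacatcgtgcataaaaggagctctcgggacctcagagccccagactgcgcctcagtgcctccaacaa
The capitals in *Cxcl10* mark, in this order, the interferon-stimulated response element (first base 213 bases before the start site), NF-kB consensus matches at 159 and 103 bases, and TGANTCA, the AP-1 motif, at 74 bases. In *Cxcl2* they mark the NF-kB consensus at 97 bases, which matched on both strands 1 base apart, and an osmotic response element on the opposite strand at 78 bases. *Pf4* held no match. Entries were found for 5 of the 6 genes (all but *Cxcl16*), and in those not shown *Cxcl1* matched the NF-kB consensus at 71 bases and *Cxcl14* the interferon element at 172 bases and the GAS motif at 191 bases. Of 27025 genes with a promoter of 300 bases, from 250 before to 50 after the start site, 5.14% held the NF-kB consensus on either strand, 3.99% the interferon element, 8.97% the AP-1 motif, 5.74% the osmotic element and 9.55% the GAS motif. TATAAA was found in 15.7% of genes and in none of the 5. A match describes these letters and is not evidence of binding.

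Genes of the routes known to act on these promoters were followed as lists. For all lists, the share of all genes at an unadjusted p under 0.05 is not given here, so no excess can be read from those counts. With the block, edgeR called 4.60% of all genes tested higher and 4.30% lower. Of 15 NF-kB subunits and inhibitors, edgeR called none without the block, with 2 at an unadjusted p under 0.05. With the block, and in DESeq2 without it, *Nfkbiz* rose from 11.3 ± 4.48 to 23.2 ± 1.98 CPM and *Ikbkg*, the regulatory subunit of the IκB kinase, fell from 149 ± 16.6 to 93.5 ± 8.01 CPM (median log2 fold change 0.07). Of 20 inflammatory genes that share stimuli with *Cxcl1* and *Cxcl2*, 16 were tested, and edgeR called none without the block (6 at an unadjusted p under 0.05) and 5 higher and 2 lower with it, while DESeq2 without the block called *Ptgs2* higher and *Ccl7* lower. The genes called with the block included the cyclooxygenase gene *Ptgs2* (2.33 ± 0.770 to 7.74 ± 5.57 CPM), the signalling inhibitor *Socs3* (1.51 ± 1.32 to 3.16 ± 1.65 CPM) and, among those lower, the chemokine *Ccl7* (23.4 ± 6.28 to 9.69 ± 4.11 CPM) and *Lcn2* (31.2 ± 11.9 to 17.4 ± 2.17 CPM), which encodes an iron-sequestering protein. Their median log2 fold change was 0.27. *Cxcl2* and *Cxcl1* were not among the genes called.

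Of 25 interferon and interferon regulatory factor genes that share stimuli with *Cxcl10*, 23 were tested, and edgeR called none without the block (5 at an unadjusted p under 0.05) and 4 higher and 1 lower with it, with a median log2 fold change of 0.14. *Ifit1* rose from 5.10 ± 1.88 to 10.7 ± 3.63 CPM, *Ifit3* from 5.32 ± 2.09 to 10.3 ± 4.40 CPM and *Usp18* from 6.00 ± 1.08 to 11.9 ± 4.51 CPM, all of them interferon-induced genes. *Ifnar1*, a chain of the type I interferon receptor, fell from 207 ± 2.86 to 122 ± 22.9 CPM. DESeq2 without the block called *Ifit1* and *Usp18* higher and *Ifnar1* lower. In edgeR's fit with the block, *Cxcl10* had a log2 fold change of 2.36 and *Ifit1* of 1.04. Of 11 listed factors of mRNA decay and stability, 10 were tested and edgeR called none without the block, with 2 at an unadjusted p under 0.05. With the block, and in DESeq2 without it, *Zfp36* (134 ± 27.9 to 249 ± 38.8 CPM) and *Zfp36l2* (282 ± 54.7 to 452 ± 83.3 CPM), which encode proteins that mark AU-rich transcripts for decay, were higher, with a median log2 fold change of 0.09 for the list.

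The salt exposure itself was visible in the osmotic response list, where 4 of 10 genes were called higher without and 6 with the block (median log2 fold change 0.70). The largest among them was *Slc6a12*, the betaine transporter gene, with 0.424 CPM in control and 71.1 CPM in NaCl libraries on average, and the myo-inositol transporter gene *Slc5a3* went from 5.88 to 100.0 CPM.

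*Pf4*, *Ppbp*, *Cxcl3*, *Cxcl1*, *Cxcl2* and *Cxcl10* lie on chromosome 5, where the coordinates above place *Cxcl10* apart from *Pf4*, *Cxcl1* and *Cxcl2*. Of 32 genes listed in and around these places, 17 were tested. These 17 include *Pf4*, *Cxcl1*, *Cxcl2* and *Cxcl10* themselves, and *Cxcl10* and *Pf4* were the only ones called in either fit. Both were chosen with this comparison known, so nothing is read from their calls. The median log2 fold change of the 17 was -0.03. Over all genes tested, edgeR called 0.478% higher and 0.176% lower without the block, and 4.60% and 4.30% with it. Around *Cxcl16* and *Cxcl14*, 12 of 22 listed neighbours were tested, with 1 called without and 3 called with the block, all higher. The gene called in both was *Zmynd15*, which went from 5.14 ± 1.66 to 13.6 ± 0.687 CPM (log2 fold change 1.43, standard error 0.24). It overlaps *Cxcl16* on the opposite strand at 552 of 3021 exonic bases (18.3%). The library kit did not keep strand, so strand cannot assign reads from these bases to either gene. How such reads entered the counts, or were left out of them, was not examined. The level of *Cxcl16* per kilobase was divided by all 3021 bases. Of the windows of 75 bases, the read length, in *Cxcl16* transcripts, 15.4% are shared with *Zmynd15*. *Cxcl10* shares 133 of 2252 exonic bases (5.91%) with *Art3*, which had 9 counts in all, and 4.57% of the windows of *Cxcl2* occur in *Cxcl3* too. *Pf4*, *Cxcl1* and *Cxcl14* share none. *Arrb2*, which encodes an adaptor that desensitizes chemokine receptors, and *Tgfbi*, a matrix protein gene, were higher with the block only (242 ± 25.8 to 338 ± 78.4 and 353 ± 74.2 to 503 ± 121 CPM).

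Across the 6 libraries, the pattern of each gene was compared with that of the 9921 genes with a mean of at least 50 counts, by Pearson correlation of log2 CPM, given as a description with no test. The libraries share treatment, mouse and depth, and many genes correlate closely over so few points. *Cxcl16* was most like *Ncoa3* (r = 0.999), *Wdr6* and *Kif3c*, *Cxcl10* most like *Stx2* (0.997), *Wbp1* and *Eif2ak1*, and *Pf4* most like *Pmp22* (0.998), *Anxa7* and *Mtss1*. Genes close to *Cxcl14* were *Shmt2* and *Cspg4* (0.994 each), and *Cxcl2* was most like *Il10ra* (0.994), *Pot1b* and *Mmut*, and *Cxcl1* most like *Dph7* (0.990), *Nfxl1* and *Arfgap1*. Between 77 and 109 genes exceeded 0.95 for each of the genes except *Cxcl1*, for which 8 did. Among the 6 genes themselves, *Cxcl16* and *Cxcl10* ran together (0.958) and *Cxcl2* and *Cxcl14* ran opposite to each other (-0.949), which is the contrast of mouse 1 with mice 2 and 3.

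*Pf4* and *Ppbp* are commonly used as markers of megakaryocytes and platelets, so the other markers of these cells were examined. Of 15 listed, 9 were tested, and edgeR called none without the block (1 at an unadjusted p under 0.05), DESeq2 called none, and 1 was called with the block, *Itgb3*, an integrin gene that macrophages also express, which fell from 17.5 ± 0.775 to 11.4 ± 3.72 CPM. *Gp1bb*, which encodes a chain of the platelet von Willebrand factor receptor, had no count in any library, and *Gp9* had 3, *Gp6* and *Selp* 4 each and *Tubb1* 7 counts in all libraries together. *Itga2b*, an integrin gene of platelets, was at 2.57 and 1.87 CPM, *Gp1ba*, of the same receptor as *Gp1bb*, at 2.28 and 3.02 CPM, and *Vwf* averaged 116 CPM without and 118 CPM with NaCl. The summed level of the tested markers, which do not include *Pf4*, was 131 to 162 CPM in control and 107 to 159 CPM in NaCl libraries, and their median log2 fold change was -0.35. Most of this sum was *Vwf*, which endothelial cells also express. The part of megakaryocytes or platelets in the level of *Pf4* was not tested.

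Of the other cell type markers, edgeR called none without the block apart from the macrophage genes *Lyz2* (9817 ± 524 to 19148 ± 3609 CPM) and *Cd14* (288 ± 14.2 to 644 ± 69.0 CPM), which rose. With the block *Csf1r* rose too, and *Mertk* (93.4 ± 19.2 to 47.3 ± 16.1 CPM) and *Mrc1* (366 ± 258 to 185 ± 136 CPM), both macrophage receptor genes, fell. DESeq2 without the block called *Csf1r* and *Mertk* as well, in these directions, and no marker of the lists that follow. At an unadjusted p under 0.05, edgeR without the block had 2 of the neutrophil markers and none of the other lists that follow. Neutrophil markers (13 tested, 3 lower with the block, median log2 fold change -0.45) summed to 338 to 618 CPM in control and 336 to 431 CPM in NaCl libraries. Monocyte markers (9 tested, 1 higher with the block, median -0.02) summed to 191 to 338 and 170 to 380 CPM. Dendritic cell markers (10 tested, no call, median -0.37) and stromal and endothelial markers (6 of 12 tested, no call, median -0.19) stayed below 10 CPM in sum in every library, with *Lum* at 0. B and T cell markers (3 of 10 tested, 1 lower with the block, median -0.70) summed to 10.4 to 21.1 and 6.35 to 18.6 CPM. The part of these cells in the levels of the 6 genes was not tested.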

How the data were processed

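RNA from 6 BMDM libraries was analysed, 3 control and 3 NaCl, grouped by the treatment label and numbered by the mouse. Per the labels and the methods, base calls were made with CASAVA 1.8.2, and 75 bp single-end reads were trimmed with fastp 0.20.0 and aligned with STAR 2.7.10b, which counted reads per gene without strand. The authors deposited the raw count per gene and, as a normalized signal, these counts over the DESeq2 size factor of their library, together with gene symbols. The normalized signal served only for its symbols. The methods pair the mm10 genome with GENCODE vM32, made for a later build, so genes were placed by chromosome, and coordinates are those of GENCODE M21 or RefSeq on GRCm38.

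The test was edgeR 4.0.16 in R 4.3.3 on genes whose counts summed to 10 or more (TMM, quasi-likelihood test of NaCl against control, Benjamini-Hochberg over 15903 genes, threshold 0.05). The methods name a comparison of treated and control samples without stating the model. No term for the mouse was used, and an alternative added it as a replicate block. The labels name the mouse of every library, and deviations from the group means correlated across genes between libraries of the same mouse (0.43, 0.15 and 0.22), while other pairs lay between -0.35 and 0.12. Differences between mice were tested with an F test of both mouse terms beside treatment. The standard error of edgeR's log2 fold change was taken as its absolute value over the square root of the test's F statistic. CPM used TMM-scaled library sizes, and log2 CPM a prior count of 2. Intervals are exact binomial (Clopper-Pearson, 95%) and cover counting error only, as does the limit of 3 counts for a count of 0. The edgeR tests were run on simulated counts, and the DESeq2 tests were not. Every simulated gene had a mouse effect, so false calls of the mouse test were not counted. DESeq2 1.42.0, scaling by median-ratio size factors or by total count, other count minimums, stricter thresholds and leaving out each library were alternatives.

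The 6 genes, the 246 genes in lists around them and the tests were chosen with earlier results of these data known. Genes were named by a rule. It takes the 6 genes, every other CXC ligand, called genes of a list (at most 4 per list by size of the log2 fold change) with genes at 0 that define a cell type, the 3 genes most like each of the 6, and genes that overlap them. Some items that it names are not reported here. *Csf1r*, *Vwf*, *Adam10*, *Adam17*, *Itga2b*, *Gp1ba*, platelet markers with few counts and receptor genes not called were named outside it, after their values were seen. Sequences came from RefSeq (GRCm38.p6) and GENCODE M21, and motifs were searched with Python 3.11.15 on both strands.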

Additional observations from a re-analysis of the deposited data

How the results depend on the processing

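Of the 6 genes, 2 were called higher and 1 lower in NaCl. These counts were the same with a replicate block for the mouse (2 and 1), in DESeq2 with and without it, under scaling by median-ratio size factors or by total count, under filterByExpr or a total count minimum of 1, when a log2 fold change of 1 was also required, and, in an alternative chosen after seeing the data, in the block without the NaCl library of mouse 3. They were 0 and 0 at an adjusted p under 0.01. Leaving out 1 library in the fit without the block gave 0 to 2 higher and 0 to 1 lower. The 3 genes called kept their direction in every setting, and *Cxcl2* reversed to a log2 fold change of -0.0794 without NaCl replicate 1, against 0.23 with all libraries and up to 0.68 without control replicate 1. Of the other fold values of the 6 genes, 67 kept direction and side of the threshold, 13 kept the direction only, and 2 of *Cxcl1* in DESeq2 kept the direction but have no adjusted p. The number of genes differing between mice was 3, and 1 to 4 when libraries were left out, a check chosen after seeing the data, with 1 without control replicate 1 or NaCl replicate 3. It was 2 in DESeq2's likelihood ratio test. *Cxcl16* passed edgeR's F test without control replicate 2, NaCl replicate 1 or NaCl replicate 2. Leaving out a library leaves 1 residual degree of freedom for the blocked fit. The NaCl library of mouse 3, with 4088065 counts, limits *Cxcl10*, *Cxcl1* and *Cxcl2*, which had 9, 2 and 16 counts there. Groups of 3 are too small for a test of outlying libraries.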
